A study of Mus musculus with 2 samples.

Results

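Insulin-like growth factor (IGF) genes were followed in Tie2Cre lineage cells that had been sorted out of embryonic day 12.5 mouse hearts. The 7 genes, chosen by symbol, were the ligand gene Igf1, the receptor gene Igf1r and the binding protein genes Igfbp2, Igfbp3, Igfbp4, Igfbp5 and Igfbp7, out of 18193 genes on the array. Every probe set annotated to exactly 1 of them was used, 23 in all. A probe set is a group of short probes that together report 1 transcript region.

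The study set control cells, Tie2Cre;Tbx20 +/loxP, against mutant cells, Tie2Cre;Tbx20 loxP/-, and asked what loss of the cardiac T-box factor Tbx20 from this lineage does to gene expression. Tie2Cre drives recombination in endothelium, endocardium and what descends from them, including cushion mesenchyme, and also in blood. Both groups carry the transgene and 1 floxed allele. The other allele is wild type in the control and null in the mutant, in every cell of the embryo. Where Tie2Cre has recombined the floxed allele, control cells thus keep 1 working copy of Tbx20 and mutant cells keep none. Live cells negative for CD41, CD45 and Ter119 were sorted, and each genotype was represented by 1 Affymetrix array, with no word in the labels on whether hearts were pooled. With no replicates, no test between genotypes could be made, and any difference below is one between these 2 arrays.

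IGF1 and IGF2 are secreted growth factors that signal through the tyrosine kinase IGF1R and, from there, through insulin receptor substrates to PI3-kinase, AKT and mTOR and to the RAS pathway. Binding proteins hold most of the ligand outside cells and can block or prolong its action, and secreted proteases release it by cutting them. In the embryonic heart, IGF2 from epicardium and endocardium is known to support growth of the myocardial wall.

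The IGF genes differed little between the arrays, with 1 exception that rested on a single probe set. All 7 were above the floor on both arrays, the floor being each array's median signal, 91.3 on the control array and 82.4 on the mutant array. At 2-fold, 0 of 7 were lower in the mutant and 0 were higher, where 1.46% of the 10649 genes above the floor on both arrays were lower and 0.648% higher. At 1.5-fold, 1 of 7 was lower, Igfbp4, and 0 were higher, against 6.61% and 4.38% of all measured genes. The same Igfbp4 probe set was at -0.53 after quantile normalization and after loess, short of 1.5-fold. Over the 7 genes, log2 ratios of mutant over control had a median of -0.19 (SD 0.24 over genes, range -0.68 to 0.09); over all measured genes the median was -0.01 (SD 0.38). These gene values come from the brightest probe set of each gene. Of the 22 probe sets of the 7 genes above the floor on both arrays, 14 were lower in the mutant and 8 higher, a share of 63.6% lower against 50.1% of the 19273 such probe sets on the array.

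**Figure D1:**
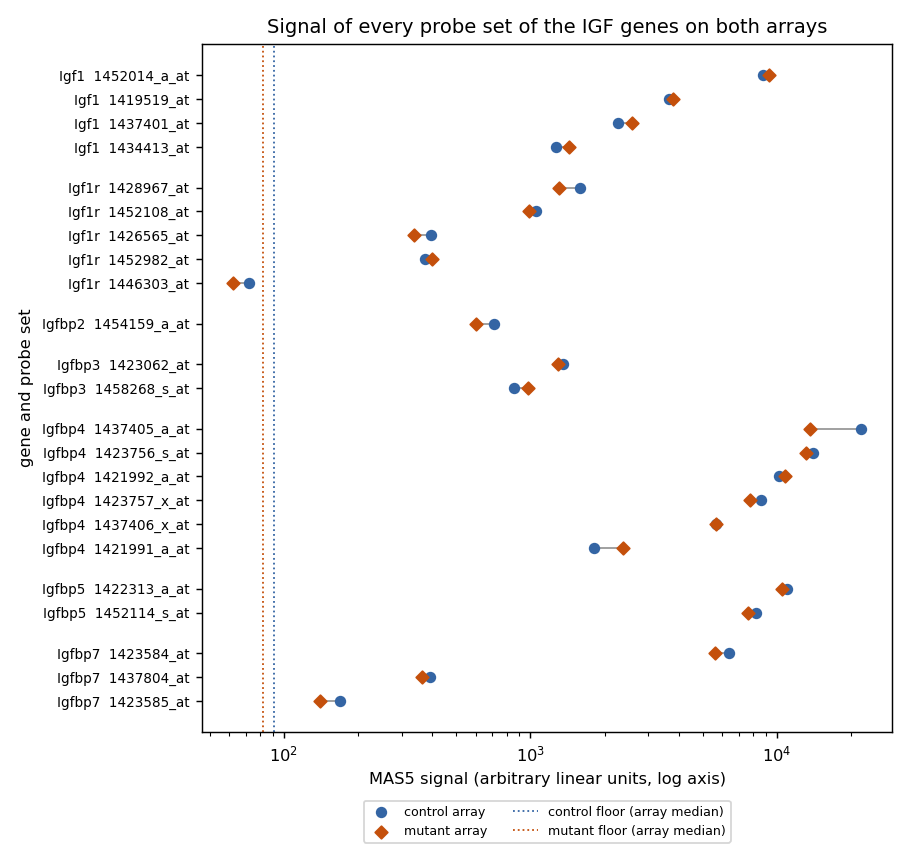
MAS5 signal (log axis) of each probe set of the 7 IGF genes on the control array (circles) and the mutant array (diamonds), with the floor of each array dotted. Most pairs of points lie close together; the widest gap is that of the brightest Igfbp4 probe set, 21911 on the control array and 13656 on the mutant array, and 1 Igf1r probe set lies under both floors.

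The promoters of Igfbp4 and Igf1r, the members with the largest absolute ratios, are shown for the 100 bases before the transcription start, from RefSeq on GRCm38.p6, both on the plus strand. The Igfbp4 stretch is chr11:99041144-99041243 and that of Igf1r is chr7:67952157-67952256. Capitals mark a TATA box motif, TATAAA, which begins 28 bases before the start.
Igfbp4: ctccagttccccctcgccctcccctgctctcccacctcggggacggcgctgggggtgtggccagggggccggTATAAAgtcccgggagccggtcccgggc
Igf1r: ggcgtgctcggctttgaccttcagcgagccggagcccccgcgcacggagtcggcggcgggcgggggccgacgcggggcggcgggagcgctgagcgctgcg
The forward motif TATAAA, searched after the sequences had been seen, lay before the start in 1 of 8 windows of the 7 genes and in 7.59% of all 32851 windows. The T-box half-site AGGTGT, searched on both strands from 250 bases before to 50 after the start, was in 0 of the 8 windows and in 13.7% of all windows. Its first bases, AGGTG, also belong to the E-box CAGGTG. A window without these letters says nothing about binding of Tbx20 elsewhere.

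Igf1, the ligand gene, was slightly higher on the mutant array in all of its 4 probe sets. The brightest read 8770 on the control array and 9305 on the mutant array, 106% of control. The others read 3655 and 3779, 2257 and 2583, and 1265 and 1433. The log2 ratios ran from 0.05 to 0.19 (mean 0.13, SD 0.07 over 4 probe sets, which share the same RNA). Probe sets agreed in sign in 22.3% of the 498 genes with 4 measured probe sets. The size was small: of the 500 genes nearest to Igf1 in brightness, 67.2% had a ratio at least as far from 0.

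Igf1r encodes the receptor tyrosine kinase for both IGF ligands. Its brightest probe set read 1582 on the control array and 1305 on the mutant array, a log2 ratio of -0.28, and 31.8% of the 500 genes nearest in brightness lay at least as far from 0. The next read 1055 and 987 (-0.10), and the third 396 and 336 (-0.24). A further probe set read 375 and 398 (0.09), so 3 of the 4 measured were lower, with a mean of -0.13 and an SD of 0.17. The fifth, at 71.9 and 62.3, was under the floor on both arrays. The probe sets at -0.28 and 0.09, which differ by 0.37, carry the same source sequence in the annotation; where they lie on the transcript was not analysed here.

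Igfbp4, a binding protein that PAPP-A cleaves, had the largest ratio of the 7 genes and the widest disagreement. Its brightest probe set, which ranked 170 in brightness on the control array, read 21911 on the control array and 13656 on the mutant array, 62.3% of control and a log2 ratio of -0.68. Of the 500 genes nearest in brightness, 1.0% lay at least as far from 0. The second in brightness read 14031 and 13116, a ratio of -0.10, and the third read 10183 and 10758, a ratio of 0.08. The remaining ones read 8597 and 7766 (-0.15), 5667 and 5633 (-0.01), and 1803 and 2382 (0.40). The 5 probe sets other than the brightest thus ran from -0.15 to 0.40, with a median of -0.01 and a mean of 0.05 (SD 0.22). Those at -0.10, -0.15 and -0.01 have names with a suffix that marks probes which may also match other sequences. The brightest has a different suffix. The probe set at -0.68 and the one at -0.01 carry the same source sequence in the annotation.

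Such disagreement was also seen in other genes on these arrays, in a share that varied with the measure. Among 2140 genes with at least 3 measured probe sets, 7.01% had a brightest probe set as far from the median of the others as Igfbp4, which stood at -0.67 from them. Among the 1341 of these genes with a mean signal over 1000 the share was 4.10%. Of 700 pairs of bright probe sets from 1 source sequence, 32 (4.57%) differed by at least as much as the Igfbp4 pair, and the median absolute difference was 0.25. Over all 6 probe sets the Igfbp4 ratio had a median of -0.05 and a mean of -0.08 (SD 0.35). These comparisons were chosen after the Igfbp4 values had been seen. The 3 genes whose signals lay closest to those of the brightest Igfbp4 probe set on both arrays were Eef1b2, Fstl1 and Prpf19, with log2 ratios of -0.60, -0.40 and -0.39. The 3 closest to Igf1r were Nts (-0.28), Siah1a (-0.27) and Usp19 (-0.32). This likeness is a distance over 2 arrays only.

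**Figure D2:**
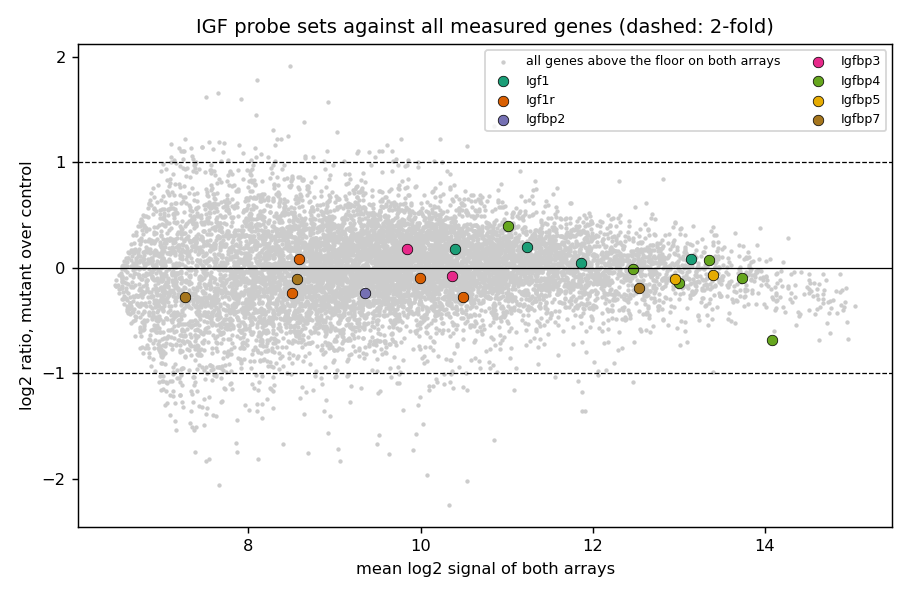
Log2 ratio of mutant over control (vertical) against the mean log2 signal of both arrays (horizontal) for the measured probe sets of the 7 IGF genes, coloured by gene, over all measured genes in grey at their brightest probe set; dashed lines mark 2-fold. No IGF probe set passes 2-fold, and the brightest Igfbp4 probe set, at -0.68, lies apart from the other 5 of its gene.

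Igfbp5 and Igfbp2 lie next to each other among the protein-coding genes of chromosome 1 in RefSeq. Igfbp5, a matrix-associated binding protein, read 11002 on the control array and 10518 on the mutant array (-0.06), and its other probe set 8195 and 7634 (-0.10). Its ratio turned to 0.03 when a trend with brightness was removed by loess. Igfbp2, a binding protein of many fetal tissues, has 1 probe set, which read 709 and 602, 85.0% of control and a log2 ratio of -0.24. Of the 500 genes nearest in brightness to Igfbp2, 48.4% were at least as far from 0, and for Igfbp5 the share was 76.8%.

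Igfbp3, which carries most IGF in the blood, gave no direction. Its brighter probe set, without a suffix, read 1361 on the control array and 1289 on the mutant array (-0.08), and its other read 861 and 976 (0.18). The name of the other has a suffix that marks probes which may also match other sequences. The mean of the 2 probe sets was 0.05 (SD 0.18), and 78.2% of the 500 genes nearest in brightness lay at least as far from 0 as the brighter one.

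Igfbp7, a vascular basement membrane protein that binds IGF weakly, was lower in all of its 3 probe sets. The brightest read 6362 on the control array and 5579 on the mutant array, 87.7% of control. The others read 392 and 364, and 169 and 140. The log2 ratios were -0.19, -0.11 and -0.27 (mean -0.19, SD 0.08). Probe sets had 1 sign in 33.5% of the 1330 genes with 3 measured probe sets, and 38.8% of the 500 genes nearest in brightness lay at least as far from 0.

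By brightest probe set, 6 of the 7 genes were thus below 0, where 50.9% of all measured genes were. Igfbp3 turned to 0.05 with the median over its probe sets and Igfbp5 to 0.03 after loess. Measured probe sets had 1 sign for Igf1 (higher) and for Igfbp5 and Igfbp7 (lower), and both signs for Igf1r, Igfbp3 and Igfbp4. With 2 measured probe sets, as for Igfbp5, 57.0% of 3034 genes had 1 sign. Between probe sets of 1 gene, the SD of the log2 ratio was 0.31 for genes with a signal over 1000 and 0.38 for those from 200 to 1000. Apart from the brightest Igfbp4 probe set, each gene's reported ratio lay within that spread of 0; after loess Igf1r was at -0.32, just past it.

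**Figure D3:**
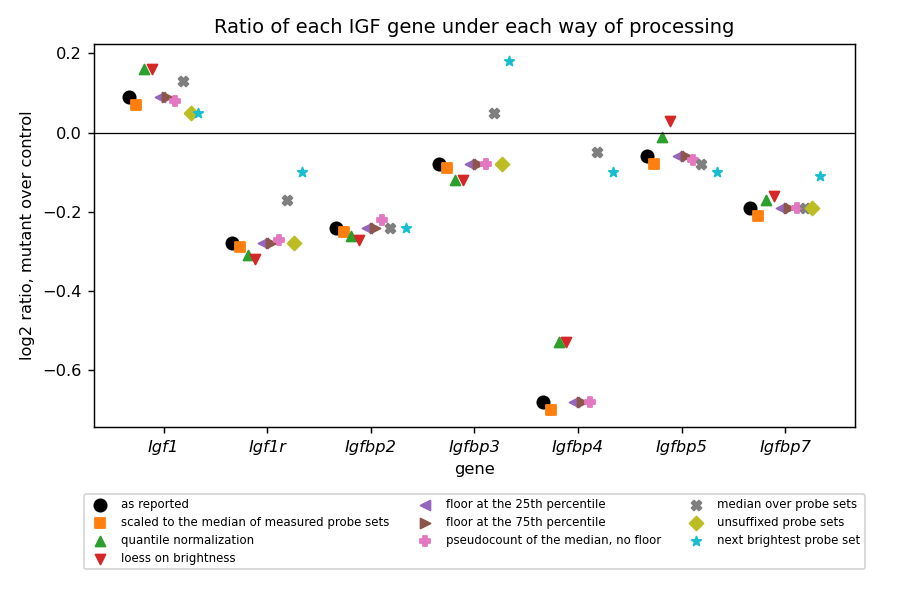
Log2 ratio of mutant over control of each IGF gene (horizontal) under each way of processing the signals (symbols), with the reported value in black. Igfbp4 moves from -0.68 to -0.05 with the median over probe sets; Igfbp3 and Igfbp5 lie on both sides of 0, and Igf1 lies above 0 throughout.

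The rest of the pathway was read from a list of 47 further genes ordered by role, of which 43 had values and 4 were not analysed here. Of these 43, 34 were above the floor on both arrays. In the mutant 24 of the 34 (70.6%) were lower and 10 higher, where 50.9% of all measured genes were lower, with a median of -0.12 (SD 0.39). At 2-fold, 2 were lower and 0 higher, where the shares over all measured genes were 1.46% and 0.648%. At 1.5-fold, 6 of the 34 were lower and 0 higher by brightest probe set, where the shares were 6.61% and 4.38%. The median was -0.03 with the median over each gene's probe sets and 0.05 with the next brightest probe set, so the median had no settled direction.

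Igf2, the fetal ligand gene and one of the brightest on both arrays, read 31331 on the control array and 26945 on the mutant array (-0.22), and 29235 and 23486 (-0.32) in its other probe set. Its brighter ratio turned to 0.08 after quantile normalization. Igf2r, the receptor that clears IGF2, read 10084 and 8706 (-0.21), with its other probe set at 0.03. Insr, the insulin receptor gene, read 449 and 322 (-0.48), while its 3 probe sets ran from -0.66 to 0.28. Other genes of this kind gave no level: Igfbp1, Igfbp6, Igfals, Igfbpl1 and Insrr were under the floor on both arrays.

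The 2 pathway genes past 2-fold were Htra1 and Irs1. Htra1, a secreted serine protease that cuts matrix proteins and Igfbp5, read 5642 on the control array and 2490 on the mutant array, 44.1% of control and a log2 ratio of -1.18. The name of that probe set has a suffix that marks probes which may also match other sequences. The other Htra1 probe set, without a suffix, was at -0.96, just short of 2-fold. Of the 500 genes nearest in brightness, 0.4% lay as far from 0 as the brighter one. Irs1, the docking protein that the activated receptor phosphorylates, read 468 and 208, a log2 ratio of -1.17 from its only probe set, and 1.6% of the 500 nearest genes lay as far from 0. With a pseudocount in place of the floor Irs1 was at -0.94.

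By brightest probe set, all 4 measured genes of the proteases and their inhibitors were below 0, with a median of -0.48; the share below 0 over all measured genes was 50.9%, for this and each group that follows. Besides Htra1, Stc2, a secreted inhibitor of PAPP-A, read 453 and 279 (-0.70, from 1 of its 3 probe sets), and Stc1 and Pappa were at -0.26 and -0.16. Of the 3 Pappa probe sets 2 were higher, up to 0.10, and their median was 0.06. Among adaptors, 4 of 7 were lower and 3 higher: Irs2 read 832 and 646 (-0.37), and Grb2, the link to RAS, read 931 and 1292, with its probe sets at 0.47 and 0.44. Grb10, counted as lower at -0.11, had 2 of its 3 probe sets higher. Of the PI3-kinase branch 7 of 11 were lower and 4 higher by brightest probe set, with a median of -0.02. Of those lower, Pik3r1, Pdpk1, Akt1 and Gsk3b had medians over their probe sets above 0, at 0.43, 0.42, 0.15 and 0.08. Inpp5d, at 0.29, had a median of -0.25. In the same branch, of the AKT-inhibited transcription factor genes, Foxo3 and Foxo4 were at -0.60 and -0.59. The highest Foxo3 probe set was at -0.16, and Foxo4 was read by 1 of its 2 probe sets. Foxo1 went the other way, at 0.06, with its 4 probe sets all higher, up to 0.76. Of the mTOR branch 6 of 7 were below 0 with a median of -0.10, of which Rictor (-0.01, with 3 of 4 probe sets higher) and Rheb (-0.03) lay close to 0 and Rptor (-0.16) had another probe set at 0.11. Tsc1, an inhibitor of mTOR complex 1, was at -0.65 (683 and 435, from 1 of its 3 probe sets). Both measured genes of IGF mRNA-binding proteins were higher, Igf2bp1 at 0.27 and Igf2bp3 at 0.08.

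**Figure D4:**
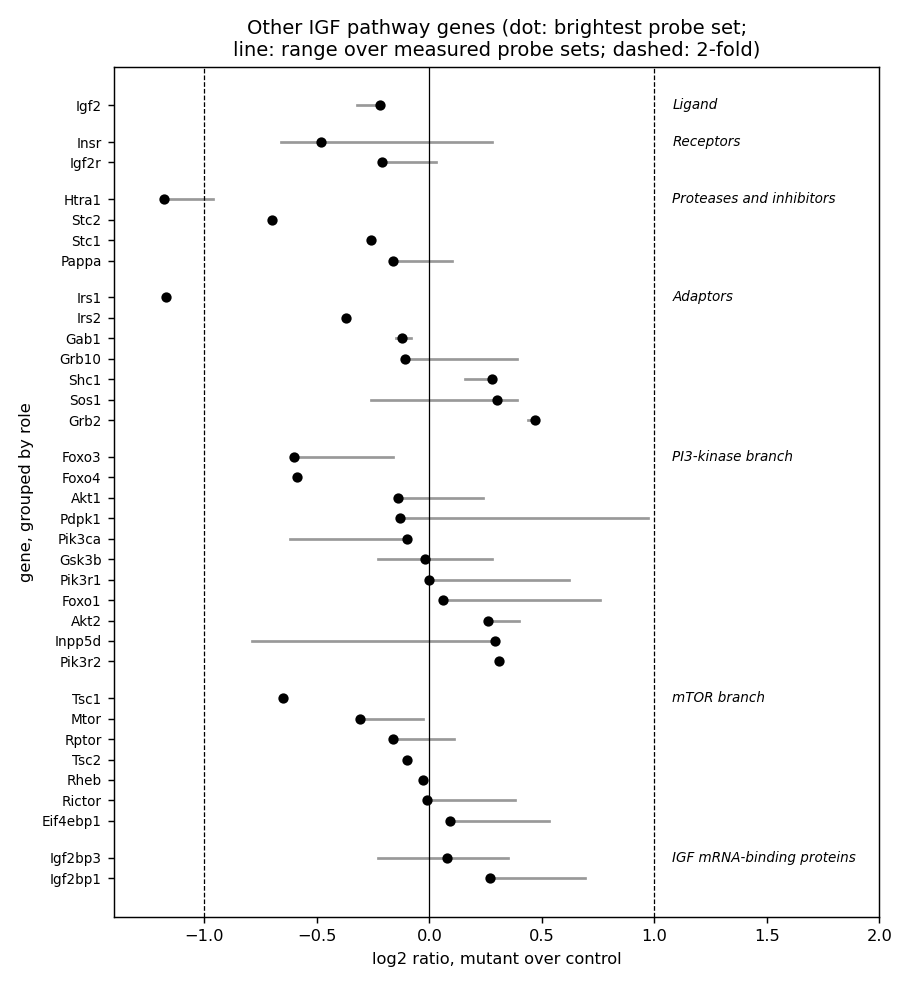
Log2 ratio of mutant over control for the 34 measured genes of the wider IGF pathway, grouped by role (dot: brightest probe set; line: range over the gene's measured probe sets; dashed lines: 2-fold). Htra1 at -1.18 and Irs1 at -1.17 lie past 2-fold, and many genes have probe sets on both sides of 0.

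The sorted cells carried the markers of their label: Pecam1, Cdh5, Tek, Kdr, Tie1 and Emcn were all above the floor, and their summed signal was 44378 on the control array and 46568 on the mutant array. Of the 4 endocardial markers, Nfatc1 (-0.33) and Cytl1 (-0.85) were lower and Npr3 (0.25) and Plvap (0.16) higher, with summed signals of 11154 and 11755. Markers of other cells differed between the arrays. All 6 cushion mesenchyme markers were lower in the mutant, with Pdgfra (-0.13) and Sox9 (-0.07) close to 0. Their summed signal was 21008 on the control array and 14277 on the mutant array, of which Postn alone made 10686 and 6431. Over all 10649 measured genes, 5423 (50.9%) were lower and 5226 higher, for this and each list that follows. The 5 measured of 7 epicardial markers were all higher (summed signal of the list 4381 and 7770), with Msln under both floors. All 7 immediate early genes were lower (37949 and 25355), with Fosb close to 0 at -0.02. The 3 measured of 4 erythroid genes were lower (11123 and 7262), and the 6 myocardial markers were 3 lower and 3 higher (12236 and 15551). Smooth muscle and pericyte markers summed to 7180 and 6710, with Myh11 under both floors. Macrophage markers summed to 264 and 294, with Ptprc, Adgre1 and C1qa under both floors, and megakaryocyte markers to 314 and 423, with Itga2b under both. The part of these shifts in the ratios of Igfbp4, Htra1, Irs1 and the other IGF genes was not tested, and fewer cells of a type cannot be told apart from less RNA per cell. Tbx20 itself was read by 3 probe sets at 60.2% to 85.9% of control, and their log2 ratios averaged -0.40 (SD 0.29). Which exons are floxed is not given in the labels, so these probe sets may not check the deletion.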

How the data were processed

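The deposited values are MAS5 signal intensities, 1 per probe set, made by the authors per the submitters' processing notes. MAS5 subtracts mismatch from perfect-match probes and scales each array by 1 factor; the trimmed mean was 500.0 on both arrays. Mismatch subtraction makes dim ratios noisy. The software version, like the genome build, is not given in the sources used here. Of 45101 probe sets, 64 were controls; of the rest, 34945 named 1 gene in the platform annotation, 932 several and 9160 were not listed. Identifiers of 34741 of the first kind, and of all 7 IGF genes, matched RefSeq.

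Signals were put on the log2 scale in Python 3.11.15 and set to a floor at each array's median. A gene took its brightest probe set, by mean log2 signal. With 1 array per genotype no test or error for the genotypes was computed, counts rest on fold size, and the number of arrays limits the precision. Alternatives were median scaling, quantile normalization, loess (span 0.3, statsmodels 0.14.6), a floor at the 25th or the 75th percentile, each array's median as a pseudocount, the median over probe sets, probe sets without a suffix, and folds of 1.5 and 3. Using the next brightest probe set was added after seeing the data. Named genes were Tbx20, the 7 genes, other ligands, receptors and binding proteins, and the 8 other pathway genes with the largest absolute ratio. The brightest markers and the 3 nearest genes of the 2 members with the largest ratios were also named. Stc1, Pappa, Rictor, Rheb, Rptor, Foxo1, Igf2bp1, Igf2bp3, Sox9 and Fosb were named after their values were seen. Grb10, Pik3r1, Pdpk1, Akt1, Gsk3b and Inpp5d were too. So were the dimmer endothelial and endocardial markers and the markers under both floors. The members and lists were chosen with earlier results of these data known. The steps were tested on simulated data. The log2 ratios planted there were larger than those of the 7 genes and the same in every probe set of a gene. Smaller ratios, and ratios that differ between probe sets of a gene, were thus not tested.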

Additional observations from a re-analysis of the deposited data

How the results depend on the processing

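No paired analysis was possible because each genotype had 1 array. Igfbp4 was at -0.53 after quantile normalization and after loess, which ends its 1.5-fold call, at -0.05 with the median over probe sets and -0.10 with the next brightest probe set; Igfbp2, Igfbp4 and Igfbp5 had no probe set without a suffix. For the other 6 genes the alternatives moved the reported ratio by less than the spread between probe sets of their brightness class. The median of the 7 genes was -0.08 with the median over probe sets. The count of IGF genes lower by the stated fold was 1 at 1.5-fold with the signals as deposited. Over all genes, 704 were lower and 466 higher at 1.5-fold, and 19 and 5 at 3-fold. At 2-fold, 535 were lower and 233 higher with the floor at the 25th percentile, and 34 and 12 at the 75th. With a pseudocount 25 were higher. The share of lower among these calls was 69.3%, with 81.1% under a pseudocount, 62.4% under loess and 61.3% under quantile normalization. Differences among dim probe sets are limited by their signal over background: 6.00% of genes under a signal of 200 passed 2-fold, and 0.759% of those over 1000.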
